A study of Mus musculus with 58 samples.

Results

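RNA-seq of stimulated mouse CD4+ T helper cells was compared between cells with added and cells without copies of the microRNA cluster miR-17~92, at 24 h of culture. The comparison used 16 of the 58 libraries of the series, chosen by genotype and time in the labels and not by any measured value: 8 libraries labelled T1792 tg/tg (TG) and 8 labelled T1792 delta/delta (KO). In KO mice the Cre recombinase driven by Cd4 deletes a miR-17~92 allele flanked by lox sites; in TG mice the same CD4cre excises a lox-flanked STOP and thereby turns on a miR-17~92 transgene that the CAG promoter drives from Rosa26. Both genotypes therefore carry Cre, which the wild type (WT) lacks, and TG cells keep their own cluster beside the transgene. Naive CD4+ T cells were isolated by kit from lymph nodes and spleen pooled from 10 mice of both sexes, whose ages the labels do not give. Culture for 24 h took place on plate-bound antibodies with 50 U/ml of IL-2 added. Anti-CD28 was always at 0.2 µg/ml, and anti-CD3 was at 0.25 µg/ml for the very weak stimulus (4 libraries per genotype) and at 0.5 µg/ml for the weak stimulus (4 per genotype).

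MiR-17~92 is a polycistron that is cut from a single primary transcript into several mature microRNAs. A mature microRNA guides Argonaute proteins to messenger RNAs whose 3′ untranslated region (UTR) pairs with its seed, bases 2 to 8, and such messages are degraded or translated less. In T cells the cluster is induced on activation and is known for limiting inhibitors of growth and survival signalling, among them the messages for PHLPP2 and the pro-apoptotic protein BIM. Reads in introns come mostly from RNA that is not yet spliced and follow transcription, while reads in exons also follow the stability of the mature message.

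The mature sequences are shown because every seed match below refers to them. They come from RefSeq (GRCm38.p6, chromosome 14, plus strand), with the seed in capitals. MiR-17-5p and miR-20a-5p share a seed, as do miR-19a-3p and miR-19b-3p.
miR-17-5p: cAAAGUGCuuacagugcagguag
miR-20a-5p: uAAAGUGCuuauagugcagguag
miR-18a-5p: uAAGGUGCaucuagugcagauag
miR-19a-3p: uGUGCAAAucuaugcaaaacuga
miR-19b-3p: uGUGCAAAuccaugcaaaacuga
miR-92a-3p: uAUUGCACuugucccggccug

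The complements searched on the transcript strand of 3′ UTRs were GCACTTT for miR-17/20a, GCACCTT for miR-18a, TTTGCAC for miR-19a/b and GTGCAAT for miR-92a. Of 20003 genes with a 3′ UTR in the GENCODE M21 annotation (GRCm38, the longest UTR of each gene), 12.1% held the first, 7.99% the second, 11.4% the third and 6.75% the fourth motif, and 29.2% held any of them. A match is a description of the letters and not a measured site. The motifs can overlap, and a stretch that holds 2 of them was counted for each. The following stretches of 20 bases, with the match in capitals, come from genes described below whose exonic counts fell relative to their intronic counts.
Zbtb4, miR-17/20a match (chr11:69781261-69781280, plus strand): cttgtttctgGCACTTTaga
Rcan3, miR-17/20a match (chr4:135416231-135416250, minus strand): attctcaatgGCACTTTaag
E2f1, miR-17/20a match (chr2:154560209-154560228, minus strand): ggctctaactGCACTTTtgg
Jazf1, miR-17/20a match (chr6:52769133-52769152, minus strand): acttttaaagGCACTTTcct
Crot, miR-17/20a match (chr5:8966490-8966509, minus strand): tatttctcaaGCACTTTaat
Tgfbr2, miR-17/20a match (chr9:116090071-116090090, minus strand): aataacgtttGCACTTTatt
Tgfbr2, miR-19a/b match (chr9:116090074-116090093, minus strand): gccaataacgTTTGCACttt
Ago1, miR-17/20a match (chr4:126438527-126438546, minus strand): attgacatttGCACTTTcag
Ago1, miR-19a/b match (chr4:126438530-126438549, minus strand): tccattgacaTTTGCACttt
Lonrf1, miR-19a/b match (chr8:36216732-36216751, minus strand): catgcttctcTTTGCACaag
Phlpp2, miR-92a match (chr8:109943860-109943879, plus strand): gagtatacacGTGCAATaat
Fnip1, miR-92a match (chr11:54517965-54517984, plus strand): aaaacatgaaGTGCAATaaa
In Tgfbr2 and in Ago1 the miR-19a/b match and the miR-17/20a match overlap.

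The hairpin genes were read as a check of the labels. Mir17 (chromosome 14, 115043671 to 115043754) had 2 counts over the 8 KO libraries, 29 over the 8 WT libraries of 24 h and 90 over the 8 TG libraries, so that TG cells held 44.5 times the KO share of reads (exact 95% counting interval 12 to 373). Mir18 had 1, 27 and 122 counts (TG over KO 121-fold, interval 21.3 to 4805) and Mir20a 2, 38 and 83 (41-fold, interval 11 to 345). Mir19a had 0, 21 and 39 counts; against a floor of 3 counts over the KO group it was at least 12.9-fold higher in TG cells. These are precursor reads in poly(A) libraries, not mature microRNA levels, and the intervals cover counting error only. In every TG library Mir17, Mir18, Mir19a and Mir20a had more counts than in any KO library. The rows of Mir19b-1 and Mir92-1 were not analysed here. The host gene row Mir17hg (115044390 to 115046728), which begins beyond these hairpins, was higher in KO cells: 101, 135 and 144 CPM (counts scaled to a common library size; lowest, median and highest of 8) against 21.9, 50.9 and 65.2 in TG cells. WT cells, at 18.3, 42.7 and 51.4 CPM, were near the TG level. Gt(ROSA)26Sor, the transcript of the locus that holds the transgene, had 1183 counts over the KO and 11 over the TG libraries, with no overlap. Gh, a sequence carried by many Cre transgenes, had 693 KO, 606 TG and 1 WT counts, and its TG minus KO log2 difference was -0.14 (SE 0.17, edgeR adjusted p = 0.491).

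Depth was even, with 19.2 to 20.3 M exonic counts in KO and 19.4 to 20.6 M in TG libraries, and intronic reads were 13.2% to 17.6% and 14.1% to 17.1% of each library's counts. Markers of CD4 T cells were abundant, with summed levels of 4271 to 5595 CPM in KO and 4111 to 4716 CPM in TG libraries. Summed B cell markers were at 23 to 93.8 CPM in KO and 36.4 to 112 CPM in TG libraries. Of 10 tested, 6 were higher and 1 lower in TG cells at an adjusted p under 0.05. That is 70.0%, beside 58.3% of all genes tested (28.9% higher and 29.4% lower). Summed myeloid markers were at 10.3 to 18.4 CPM in KO and 14.8 to 24.9 CPM in TG libraries. Of 7 tested, 1 was higher and 1 lower (28.6%), with 11 too low to test. In bulk RNA, fewer cells of a type and less RNA per cell cannot be told apart. Libraries with the same replicate number shared deviations from their group means in both genotypes (correlations across genes of 0.182 to 0.451 in the 8 KO with TG pairs), and the number was a block in each test. The labels do not say that the numbers are separate cultures or animals, so the p-values measure the spread between these libraries.

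At 24 h the largest rises in TG over KO cells included genes of T cell effector function. Interferon-gamma, the lead cytokine of type 1 helper cells, was 3.82 log2 units higher, and the transcription factors Batf3 and Eomes were 5.25 and 3.22 higher. Of 12041 genes tested in exonic counts, edgeR's quasi-likelihood test with stimulus strength in the model called 7021 (58.3%) at an adjusted p under 0.05, 3478 higher (28.9%) and 3543 lower (29.4%) in TG cells. Most were small: the median size of a called change was 0.37 log2 units, and 394 rises and 358 falls reached at least 2-fold. The 8 TG and 8 KO libraries did not overlap in 1732 genes (14.4% of those tested). TG libraries were the higher ones in 856 (7.11%) and the lower ones in 876 (7.28%). In intronic counts 27.4% of genes were called (13.4% higher, 13.9% lower), and for the change of exonic relative to intronic counts 17.8% (8.69% higher, 9.09% lower). With counts summed over both strengths for each genotype and number, 4 against 4, the fit with the replicate block called 5647 genes and the fit without it 3955.

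Ifng was the one cytokine among the 12 largest rises of genes with at least 5 CPM in the higher genotype and no overlap between genotypes, the rule by which rises and falls are named here. In KO libraries 1 to 4 it stood at 6.52, 4.70, 1.26 and 1.09 CPM under the very weak and at 5.35, 8.98, 1.04 and 1.95 CPM under the weak stimulus. In TG libraries 1 to 4 it stood at 81.2, 66.8, 12 and 25 CPM under the very weak and at 88.8, 98.7, 15.6 and 37.4 CPM under the weak stimulus. Every TG library lay above every KO library, and in both genotypes numbers 1 and 2 were higher than numbers 3 and 4; the log2 difference was 3.82 (SE 0.12, adjusted p = 2.84e-13).

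Batf3, a partner of JUN and IRF factors, was at a low level in KO cells. Its KO levels were 0.05, 0.28 and 0.472 CPM (lowest, median, highest of 8) and its TG levels 6.27, 8.76 and 17.4 CPM. Intronic counts of Batf3 rose by 4.53 log2 units (adjusted p = 2.28e-12) beside 5.25 in exons (SE 0.21, adjusted p = 4.40e-12). The exonic minus intronic difference was 0.72 (SE 0.35, adjusted p = 0.154).

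The IL-12 receptor chain Il12rb2 had 2.37, 11 and 19.4 CPM in KO and 60.2, 83.9 and 111 CPM in TG libraries (log2 3.15, SE 0.26, adjusted p = 2.50e-08). Eomes, a T-box factor, had 0.573, 2.25 and 4.23 CPM in KO and 11.5, 20 and 31.2 CPM in TG libraries (log2 3.22, SE 0.21, adjusted p = 1.48e-09). Of 12 type 1 genes tested, 10 rose and 1 fell (91.7% called, beside 58.3% of all genes, 28.9% higher and 29.4% lower), with a median log2 difference of 1.34 against -0.005 over all genes tested; Runx3 (1.48), the chemokine receptor Cxcr3 (2.49) and the chemokine Ccl3 (2.69, groups overlapping) were among them. In introns 5 of 9 rose and 1 fell (66.7% called, all genes 27.4%).

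Several of these genes are also made by CD8 T and NK cells, some of whose markers were higher in TG cells as well. The 6 CD8 markers summed to 32.1 to 46.4 CPM in KO and 49.4 to 132 CPM in TG libraries. Of 5 tested, 3 were higher and 1 lower (80.0% called, beside 58.3% of all genes, 28.9% higher and 29.4% lower). Eomes and Crtam are among the 6, while Cd8b1, part of the CD8 coreceptor itself, was lower in TG cells (8.98, 11.8 and 14 against 4.22, 8.34 and 9.82 CPM; log2 -0.64, SE 0.10, adjusted p = 4.74e-05), and Gzmk was at 0 in all KO libraries. The 10 NK markers summed to 8.47 to 18.9 and 18.2 to 37.7 CPM. Of 4 tested, 3 rose (75.0% called, all genes 58.3%), led by Nkg7 (log2 1.27), and 6 were too low to test. What part cells of these types have in the rise of type 1 genes was not tested.

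**Figure D1:**
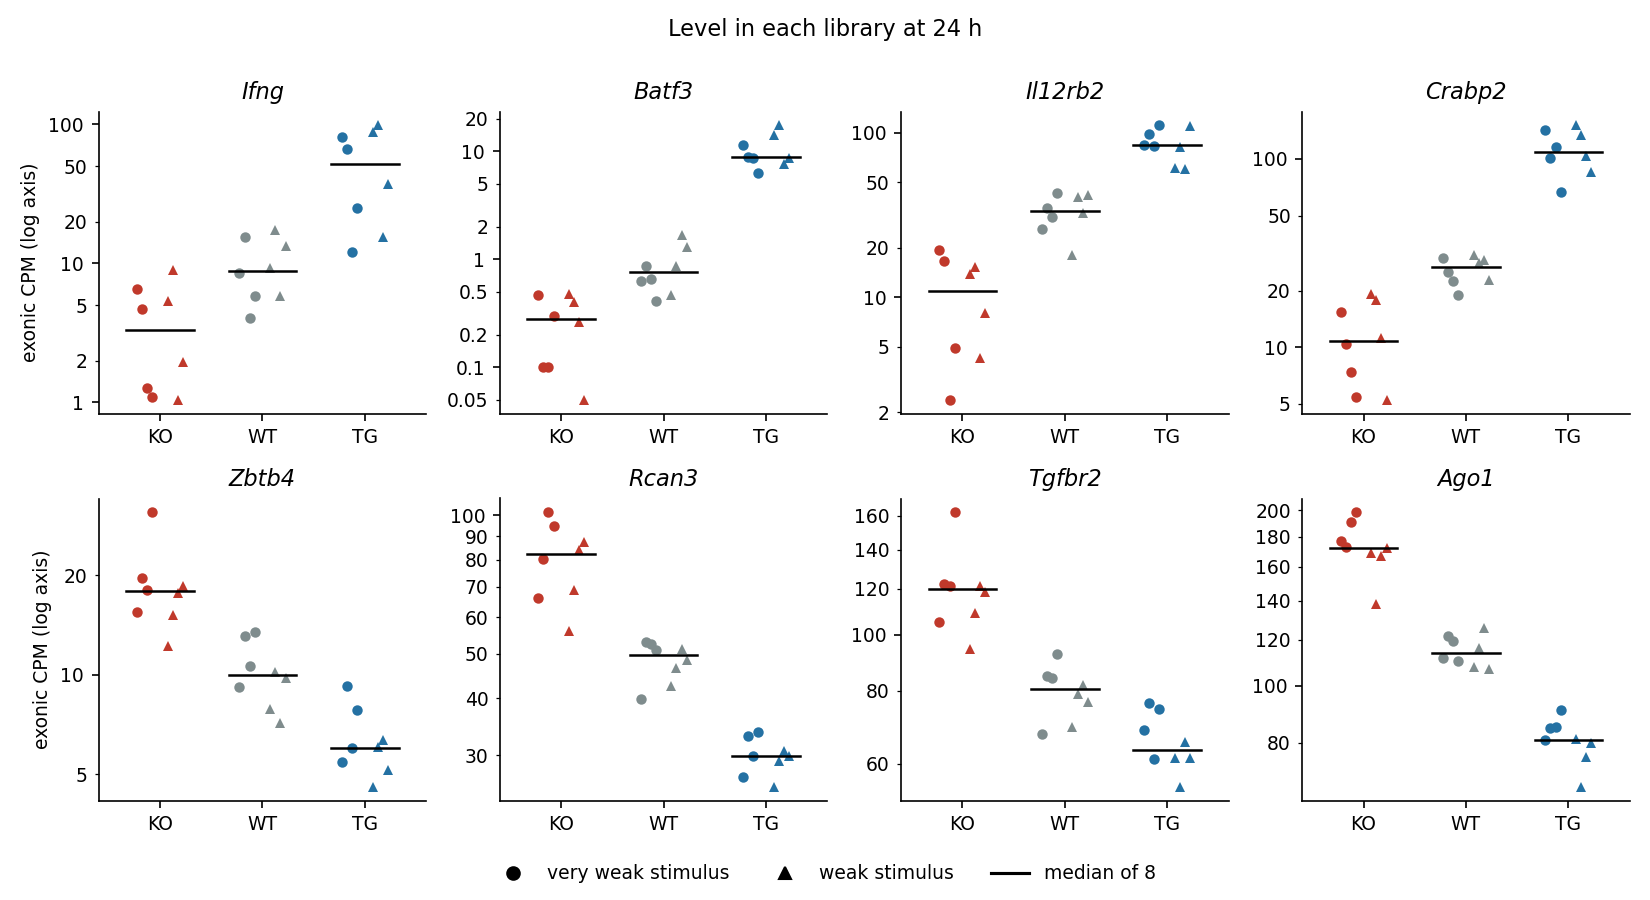
Exonic level of 8 genes in each of the 24 libraries of 24 h, in CPM on a log axis, by genotype; circles are the very weak and triangles the weak stimulus, and the line is the median of 8. In all 8 genes the KO and TG libraries do not overlap and the WT median lies between them, for example at 8.86 CPM for Ifng and 114 CPM for Ago1.

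Il13, a type 2 cytokine, had 0, 0.051 and 0.157 CPM in KO and 1.82, 3.73 and 7.69 CPM in TG libraries, without overlap (log2 5.98, SE 0.26, adjusted p = 1.26e-11). Of 11 type 2 genes tested 9 rose and 1 fell (90.9% called against 58.3% of all genes, of which 28.9% were higher; median 1.15 against -0.005), and the cytokine genes Il5 and Il24 were too low to test; the IL-4 receptor chain Il4ra (1.0), the chemokine receptor Ccr8 (1.67) and the factor Nfil3 (1.15) did not overlap. Il4 itself, named after its values were seen, had 0, 0.0499 and 0.251 CPM against 0.677, 1.79 and 3.2 CPM (log2 4.74, SE 0.38, adjusted p = 1.69e-08). Il21, made by follicular and type 17 helper cells, was 3.14 log2 units higher in TG cells. Type 17 genes split with 3 higher and 3 lower of 7 (85.7% called), while Il17f, Il22 and 2 others were too low to test. Follicular helper genes split with 3 higher and 5 lower of 10 (80.0% called, all genes 58.3%); among the falls were Slamf6 (-1.08) and Pou2af1 (-1.32).

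Of 25 early activation and effector genes 17 rose and 3 fell (80.0% called, where 58.3% of all genes were called and 28.9% were higher), at a median log2 difference of 0.80. Il2ra, the inducible chain of the IL-2 receptor, had 334, 380 and 443 CPM in KO and 750, 883 and 1093 CPM in TG libraries (log2 1.19, SE 0.04, adjusted p = 1.65e-13). Its intronic counts rose by 0.45, so the exonic minus intronic difference was 0.74 (SE 0.07, adjusted p = 1.89e-08). For the cytokine Lta (log2 1.87) the same difference was -0.03 (SE 0.12, adjusted p = 0.915), beside an intronic rise of 1.91. Among the 3 falls, named after their values were seen, the activation marker Cd69 fell by 0.47 in exons (adjusted p = 9.95e-06) while its intronic counts rose by 0.71 (adjusted p = 1.09e-05). The other falls were Egr3 (-0.72) and Fosl1 (-0.41).

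The named rises also held genes of retinoid uptake. Crabp2, a cytosolic carrier of retinoic acid, had 5.25, 10.8 and 19.1 CPM in KO and 66.9, 109 and 151 CPM in TG libraries (log2 3.37, SE 0.11, adjusted p = 4.24e-13). Stra6, the cell-surface importer of retinol, rose by 3.81 (0.249, 1.49 and 3.56 against 5.06, 19 and 49.4 CPM). Of 6 tested genes of retinoid uptake and receptors 5 rose and 1 fell, against 58.3% called of all genes. The tetraspanin gene Tspan9 (3.18), the scaffold gene Ajuba (3.58), the stress factor Atf3 (3.17), the urokinase receptor gene Plaur (3.07), the kinase adaptor gene Tbkbp1 (2.81) and the coagulation inhibitor gene Pros1 (2.81) complete the 12.

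The largest fall after Gt(ROSA)26Sor was that of Akr1c18, a steroid-reducing enzyme gene, with 14.8, 29.5 and 64.9 CPM in KO and 1.70, 3.67 and 9.52 CPM in TG libraries (log2 -2.92, SE 0.16, adjusted p = 1.56e-10). Bdh2, a short-chain dehydrogenase gene, had 11.5, 19.5 and 29.6 CPM in KO and 2.01, 3.2 and 5.19 CPM in TG libraries, and its log2 difference was -2.52 in exons and -2.57 in introns. Other large falls were those of Ifi214 (-2.23), Rgl1 (-2.09), Galnt9 (-2.0), Tmem38b (-1.91), Tbc1d8b (-1.89), Tbc1d4 (-1.89), Nrn1 (-1.85) and Ephx1 (-1.84). Ifi214 belongs to a family of near-identical genes among which reads could be split.

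Interferon-inducible genes were called in both directions. Among immunity-related GTPase genes, Iigp1 had 23.8, 77.3 and 120 CPM in KO and 314, 421 and 493 CPM in TG libraries (log2 2.63, SE 0.23, adjusted p = 5.39e-08), and Igtp rose by 1.41. Among genes of the PYHIN family of DNA sensors, Ifi209 had 22.9, 35.2 and 72.9 CPM in KO and 4.51, 12.1 and 17.5 CPM in TG libraries (log2 -1.73, SE 0.16, adjusted p = 1.02e-07). Over 21 PYHIN, guanylate-binding and immunity-related GTPase genes in 1 list, 12 rose and 6 fell (85.7% called, all genes 58.3%), and in introns 9 rose and 6 fell of 19 (78.9% called, all genes 27.4%). The GTPase genes, like the PYHIN genes, include near-identical copies. Of 24 type I interferon response genes 11 rose and 4 fell, and the 62.5% called is near the 58.3% of all genes; Usp18 rose by 1.77, Bst2 by 0.81 and Isg20 fell by 0.70.

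Published targets of the cluster were lower in TG cells in most cases. Of 29 tested, 17 fell and 6 rose (79.3% called, beside 58.3% of all genes), with a median log2 difference of -0.27. In introns 5 fell and 8 rose of 28 (46.4% called, all genes 27.4%), with a median of -0.08. For exonic minus intronic change 14 fell and 2 rose of 28 (57.1% called, beside 17.8% of all genes), with a median of -0.36. The list comes from published work, but its members were chosen with earlier results of these data known. Ccnd1 was too low to test.

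The 4 targets with the largest exonic falls encode repressors or signalling regulators. Zbtb4, a zinc finger repressor, had 12.2, 17.9 and 31 CPM in KO and 4.58, 6.01 and 9.22 CPM in TG libraries, without overlap (log2 -1.53, SE 0.11, adjusted p = 3.40e-09). Its intronic counts were low and differed by -0.21 (SE 0.30, adjusted p = 0.64), and its exonic minus intronic change was -1.32 (SE 0.26, adjusted p = 5.36e-04); the UTR held 3 miR-17/20a, 1 miR-18a and 2 miR-19a/b matches. Hbp1, a repressor of cell cycle entry, had 14.8, 21.2 and 35.4 CPM in KO and 4.20, 7.75 and 11.1 CPM in TG libraries (log2 -1.54, SE 0.11, adjusted p = 2.27e-09). Its introns fell by 0.47 and the exonic minus intronic change was -1.05 (SE 0.12, adjusted p = 1.74e-07), in a UTR without a match to any of the motifs.

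Rcan3, a regulator of calcineurin, and Rbl2, the pocket protein p130, fell in exons and in introns. Rcan3 had 66.1, 80.5, 102 and 94.8 CPM in KO libraries 1 to 4 under the very weak and 56, 68.7, 84 and 87.5 CPM under the weak stimulus. In TG libraries it had 27, 33.1, 30 and 33.7 CPM under the very weak and 25.6, 29.1, 30.7 and 29.9 CPM under the weak stimulus. All TG libraries were below all KO libraries, and those of TG cells lay closer together (log2 -1.40, SE 0.06, adjusted p = 9.82e-12). Rcan3 introns fell by 0.79 (adjusted p = 2.15e-04) and its exonic minus intronic change was -0.62 (SE 0.13, adjusted p = 8.42e-04). Rbl2 fell by 1.29 in exons, by 0.73 in introns and by 0.55 in the difference of both.

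For some other targets an exonic fall came without a called intronic fall. E2f1, a cell cycle activator with 2 miR-17/20a matches, had 93.9, 115 and 127 CPM in KO and 51.1, 64.3 and 79.1 CPM in TG exons (log2 -0.83, SE 0.05, adjusted p = 4.78e-10). In its introns the medians were 61 and 60.1 CPM (log2 -0.04, SE 0.09, adjusted p = 0.801), and the difference was -0.79 (SE 0.09, adjusted p = 2.13e-07). Tgfbr2, the type II receptor for TGF-beta, had 94.5, 120 and 162 CPM in KO and 54.7, 63.4 and 76.2 CPM in TG exons (log2 -0.85). Its introns differed by -0.20 (SE 0.09, adjusted p = 0.0940), and the exonic minus intronic change was -0.65 (SE 0.08, adjusted p = 1.78e-06). Phlpp2, a phosphatase acting on AKT, fell by 0.59 in exons while its introns rose by 0.35 (adjusted p = 0.0259), a difference of -0.94 (SE 0.11, adjusted p = 1.74e-07).

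Cyclin D2 showed such a difference without a change of its mature level. Ccnd2 exons differed by -0.08 (SE 0.04, adjusted p = 0.107), while intronic counts were 76.3, 108 and 128 CPM in KO and 123, 153 and 180 CPM in TG libraries (log2 0.54, SE 0.08, adjusted p = 2.68e-05). The exonic minus intronic change was -0.63 (SE 0.07, adjusted p = 2.34e-07). Bcl2l11, which encodes BIM, had 85.4, 118 and 175 CPM in KO and 61.9, 73.2 and 88.6 CPM in TG libraries, with slight overlap (log2 -0.64, SE 0.08, adjusted p = 2.85e-06). Its exonic minus intronic change was -0.48 (SE 0.08, adjusted p = 8.05e-05); without the replicate block this difference was at adjusted p = 0.0798.

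Some targets on the list were higher in TG cells. Socs3 and Socs1, feedback inhibitors of cytokine receptors, rose by 1.16 and 0.89, with overlap between genotypes. Socs3 introns rose by 1.69 and its exonic minus intronic change was -0.60 (SE 0.28, adjusted p = 0.144). Of 8 SOCS genes tested 7 rose and 0 fell (87.5% called, beside 58.3% of all genes and 28.9% higher), led by Cish (log2 1.41; 49.2, 69.7 and 87.8 CPM in KO and 135, 189 and 224 CPM in TG libraries). Tgfbr1 rose by 0.56 without overlap, Ikzf4 by 0.49, Stat3 by 0.41 and Smad4 by 0.21. Of these 6 risen targets, Stat3 held 3 matches, Ikzf4 2, Socs1 and Socs3 1 each, and Tgfbr1 and Smad4 0. The rise of Smad4 was not called under the very weak stimulus alone.

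**Figure D2:**
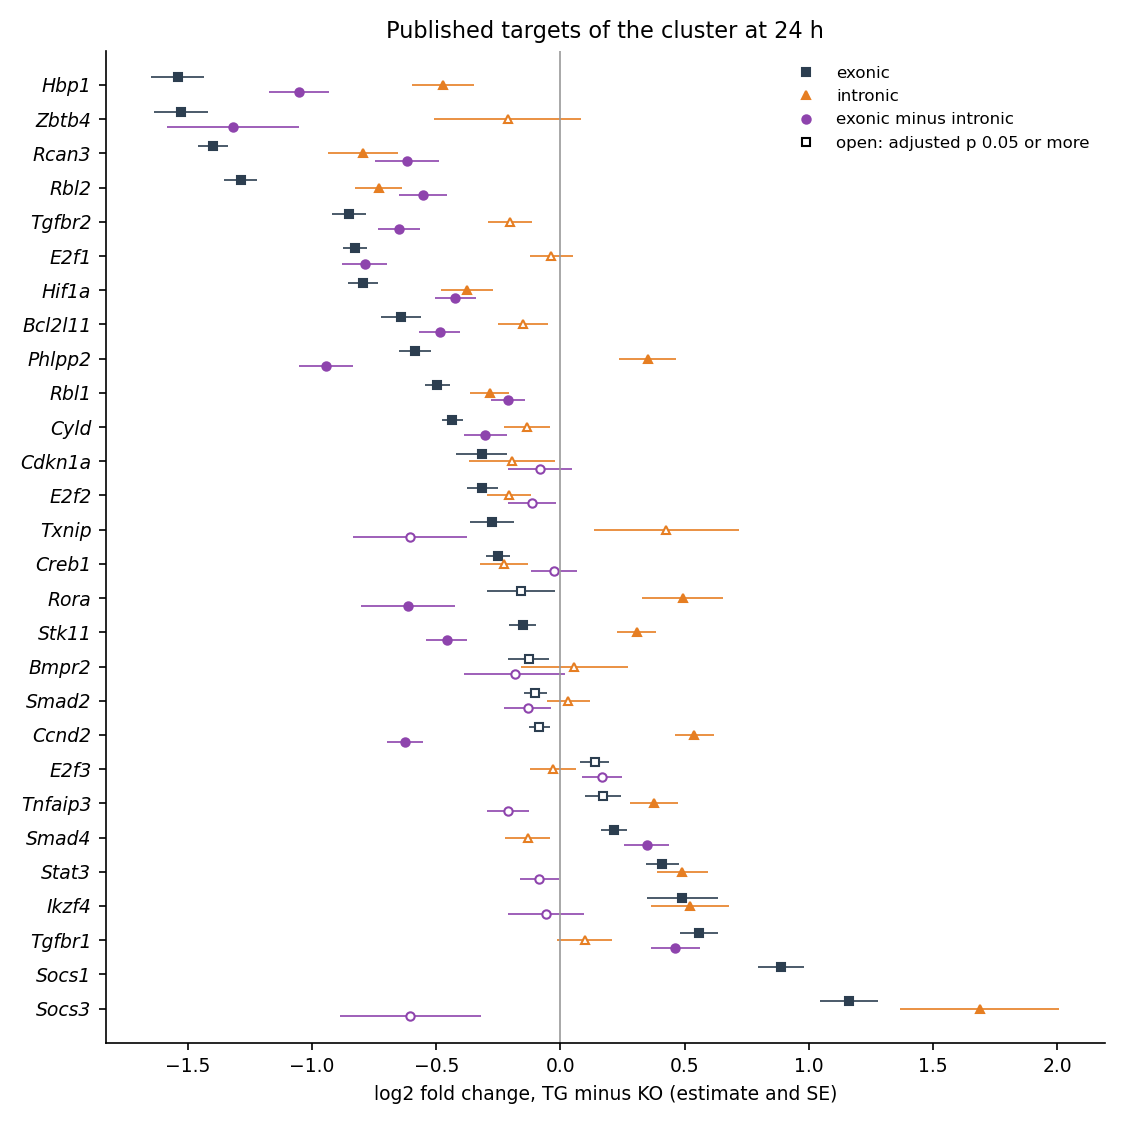
Log2 difference of TG minus KO for 28 of the 29 tested published targets in exonic counts, intronic counts and exonic minus intronic change; points are edgeR estimates, bars are standard errors and open points did not reach an adjusted p under 0.05. Hbp1 and Zbtb4 lead the exonic falls at -1.54 and -1.53, Socs3 the rises at 1.16, and Ccnd2 and Phlpp2 have intronic changes above 0.

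Intron counts were tested on their own to see how far change before splicing went. Of 10798 genes, edgeR called 2954 (27.4%), 1450 higher and 1504 lower. Both strengths of a genotype and number shared deviations (correlations across genes in the exonic table of 0.332 to 0.563), and the fit takes them as separate samples. With both strengths summed, 4 against 4, the intronic count was 1786 with the replicate block and 615 without it. With the strengths tested separately it was 594 under the very weak and 1742 under the weak stimulus, and over single libraries without the block it was 1726. The largest intronic rises after Batf3 included Oaf (3.09), Ccdc102a (3.09), Tspan9 (3.07) and the adhesion receptor gene Adgrg5 (2.93), whose exonic levels in KO cells were 0.306, 1.12, 4.06 and 0.28 CPM (medians). The largest intronic falls included Bdh2 (-2.57), Wscd2 (-2.49), Neurl3 (-2.20) and Igfbp7 (-2.04). The introns of Cd4, the gene whose sequences drive Cre, stood at 276, 449 and 653 CPM in KO, 274, 317 and 358 in TG and 66.2, 97.5 and 127 in WT libraries; what part the Cre transgene has in this was not tested. Cd4 exons were lower in TG than in KO cells (418, 454 and 486 against 614, 672 and 747 CPM; log2 -0.58, SE 0.03, adjusted p = 2.98e-10).

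The change of exonic relative to intronic counts was tested in a single fit of both tables, which takes it as change after transcription. Of 10135 genes, 1802 (17.8%) were called, 881 with a higher and 921 with a lower exonic share in TG cells, and 31 and 75 of these reached at least 2-fold. The count was 793 without the replicate block, 1180 without the libraries numbered 3 and 1134 without those numbered 4. Both strengths of a genotype and number entered as separate samples, and no fit with the strengths summed was run for this change. Isoform use and reads of overlapping genes in introns also enter this difference.

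Genes with the strongest falls of this kind, among them Zbtb4 as described above, had intronic differences that were not called or were above 0. The exception was Gt(ROSA)26Sor, with a called intronic difference of -1.70. Jazf1, a zinc finger gene with 2 miR-17/20a and 1 miR-19a/b matches, had 8.28, 10.2 and 12.7 CPM in KO and 3.2, 3.58 and 4.46 CPM in TG exons, while intron medians were 41.1 and 39.7 CPM. Its exonic minus intronic change was -1.35 (SE 0.15, adjusted p = 7.70e-08). Crot, a peroxisomal carnitine transferase gene with 1 miR-17/20a match, had 27, 29.2 and 32.3 CPM in KO and 9.36, 10.7 and 14.1 CPM in TG exons, with a change of -1.33 (SE 0.15, adjusted p = 1.45e-07). Neither overlapped between genotypes in exons.

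Lonrf1 (-1.59, 2 miR-19a/b matches), Zfyve21 (-1.40, 1 miR-92a match), St6galnac6 (-1.51, 1 miR-17/20a match) and Fosl1 (-1.57, 1 miR-19a/b match) complete this group. For St6galnac6, a sialyltransferase gene, exons fell by 0.53 and introns rose by 0.97. For Fosl1, an AP-1 subunit, exons fell by 0.41 and introns rose by 1.15; the exonic fall was not called without the replicate block (adjusted p = 0.14) or under the weak stimulus alone (adjusted p = 0.105).

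Genes of the microRNA machinery were mixed, with 5 higher and 5 lower of 12 (83.3% called, all genes 58.3%). Ago1, an Argonaute that binds microRNAs, had the clearest change, with 138, 172 and 198 CPM in KO and 67.2, 81 and 90.9 CPM in TG libraries, no overlap, and a log2 difference of -1.10 (SE 0.04, adjusted p = 3.13e-12). Its introns differed by -0.17 (SE 0.10, adjusted p = 0.249) and its exonic minus intronic change was -0.93 (SE 0.09, adjusted p = 2.59e-08). Dgcr8 (0.28) and the nuclear exporter Xpo5 (0.24) rose and Tnrc6b fell by 0.38. Fnip1, a brake on growth signalling through AMPK and mTORC1 and a member of a list of PI3K-AKT-mTOR brakes (3 higher, 8 lower of 20; 55.0% called, all genes 58.3%), had 71.8, 90.6 and 105 CPM in KO and 38.5, 49.9 and 63.6 CPM in TG libraries (log2 -0.88; exonic minus intronic -0.54, SE 0.09, adjusted p = 4.61e-05).

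In the other direction, exonic counts rose relative to intronic ones. Pbk, a mitotic kinase gene, had 14, 19.6 and 22.8 CPM in KO and 38.5, 45.8 and 61.7 CPM in TG exons, and intron medians of 36.9 and 22.7 CPM. Its exonic minus intronic change was 2.15 (SE 0.11, adjusted p = 1.32e-14), the largest rise among genes above 5 CPM. Cyclin D3 (Ccnd3, 1.29), H2-DMa (1.41), Insig2 (1.38), Crabp2 (1.35) and Naxd (1.17) also rose in this measure. Introns fell in Pbk, Ccnd3, Insig2 and Naxd and rose in H2-DMa and Crabp2. None of these 6 genes held a match to the 4 motifs.

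**Figure D3:**
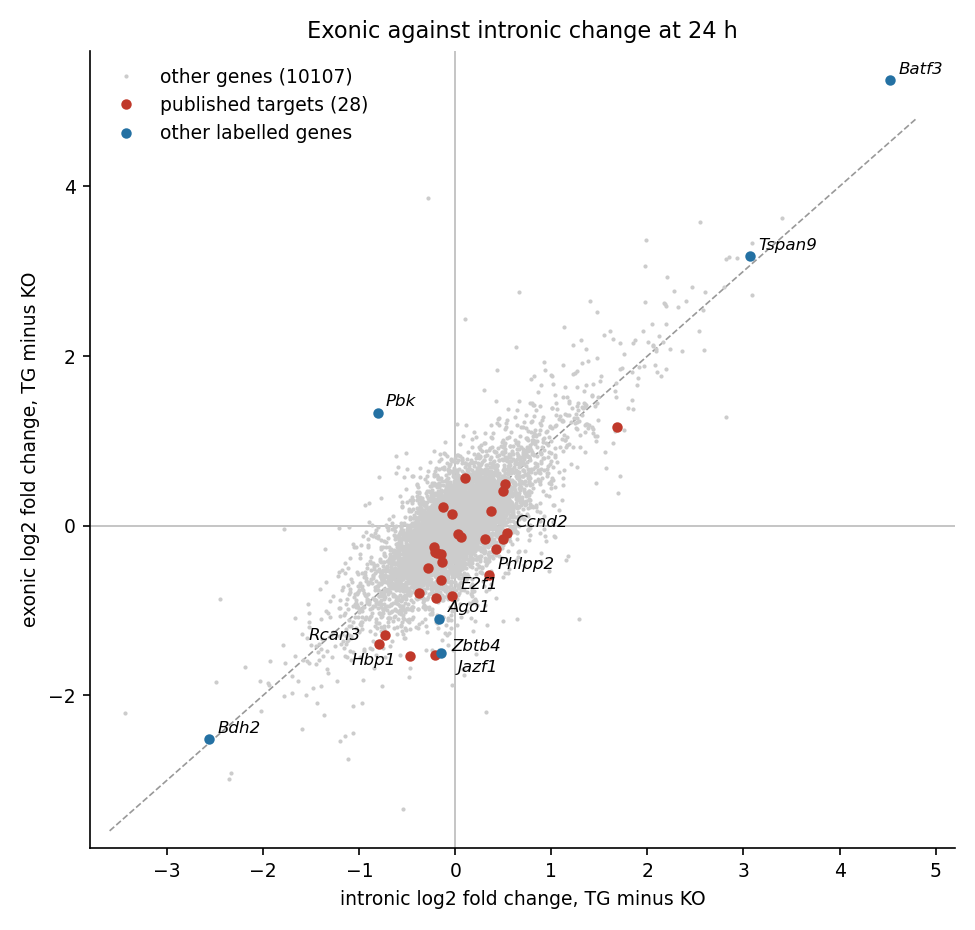
Exonic against intronic log2 difference (TG minus KO) for the 10135 genes tested in both tables; red points are published targets, blue points other labelled genes, and the dashed line marks equal change. Gt(ROSA)26Sor, at -6.62 in exons, lies outside the axes. Zbtb4, Hbp1, E2f1, Ago1 and Jazf1 lie under the line and Pbk far above it. Batf3 lies above the line by 0.72, a difference that was not called, and Tspan9 and Bdh2 lie close to it.

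Seed matches were set against these changes over all genes, as a description. Genes with 0, 1 and 2 or more miR-17/20a matches had a median exonic minus intronic change of 0.01, -0.08 and -0.16, and 7.15%, 19.5% and 27.5% of them were called lower. Their intronic medians were -0.01, -0.02 and -0.04. The same order held for miR-19a/b (0.01, -0.06 and -0.15) and miR-92a (0.01, -0.07 and -0.18), and the steps were smaller for miR-18a (0.002, -0.03 and -0.05). With 4 or more matches of any kind the median was -0.18 and 31% of 155 genes were called lower, against 5.8% of 6484 genes with none.

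Genes with matches have longer UTRs: the median was 1024.5 bases with 0 and 2359 bases with 1 miR-17/20a match. Within UTRs above 500 and up to 1000 bases the median exonic minus intronic change was 0.02 without and -0.17 with a miR-17/20a match. Within UTRs above 2000 and up to 4000 bases it was 0.03 and -0.06. For genes with miR-18a matches and none of the other motifs the median was 0.04. For genes with miR-17/20a matches alone it was -0.06, for miR-19a/b alone -0.04 and for miR-92a alone -0.05.

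**Figure D4:**
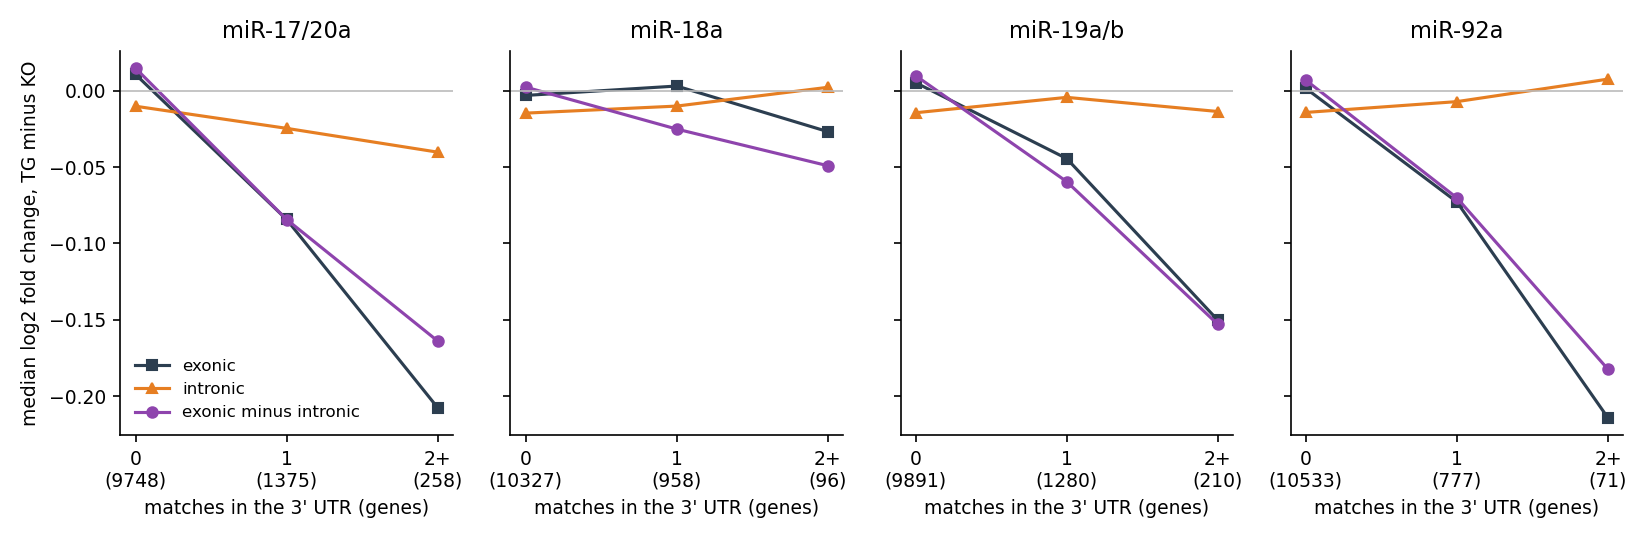
Median log2 difference (TG minus KO) of exonic counts, intronic counts and their difference in genes with 0, 1 and 2 or more seed matches in the longest 3′ UTR, for each seed family; numbers in parentheses are genes tested in exons. Exonic and exonic minus intronic medians fall with the number of miR-17/20a, miR-19a/b and miR-92a matches, to -0.21 and -0.16 for miR-17/20a, while intronic medians stay between -0.04 and 0.01.

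Of 28 ribosome biogenesis genes 22 rose and 0 fell (78.6% called, all genes 58.3% and 28.9% higher; median 0.22), and 16 of 27 rose in introns (59.3%, all genes 13.4% higher): Rrs1 (0.72; 65.9, 85.6 and 107 CPM in KO and 120, 133 and 167 CPM in TG libraries), Noc4l (0.60), Noc2l (0.53) and Bysl (0.48) did not overlap. Of 9 CDK inhibitors and RB family genes 8 fell and 0 rose (88.9% called, all genes 58.3% and 29.4% lower; median -0.54), with Rbl2, Rbl1 (-0.50), the INK4 inhibitor Cdkn2c (-0.78) and the antiproliferative gene Btg2 (-0.78) leading. Cell cycle genes fell in 14 of 30 and rose in 4 (median -0.13), and the 60.0% called is near the 58.3% of all genes. In their introns 15 fell and 1 rose (53.3% called, all genes 27.4% and 13.9% lower). Mcm3 fell by 0.51 and Ccnb2 by 0.85, while Mcm2, of the same helicase, rose by 0.38 in exons and fell by 0.38 in introns.

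Of 23 sterol synthesis genes 9 fell and 3 rose (52.2% called, under the 58.3% of all genes), and in introns 10 fell and 0 rose (43.5%, all genes 27.4% and 13.9% lower); Stard4 fell by 0.68 and Insig1 by 0.59. Glycolysis genes rose in 6 and fell in 7 of 20 (65.0% called), near the 28.9% higher and 29.4% lower of all genes, with the hexokinase gene Hk2 at 67.6, 114 and 139 CPM in KO and 156, 196 and 256 CPM in TG libraries (log2 0.93, SE 0.08, adjusted p = 6.65e-08) and the aldolase gene Aldoc lower by 1.90 log2 units (from a KO median of 3.75 CPM). Naive state and quiescence genes fell in 8 and rose in 2 of 20 (50.0% called, under the 58.3% of all genes); Satb1, a chromatin organiser, rose by 1.25 and Foxp1 fell by 0.28.

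Surface receptors changed in both directions. The coinhibitory receptor Btla had 369, 479 and 612 CPM in KO and 172, 237 and 346 CPM in TG libraries (log2 -1.03, SE 0.08, adjusted p = 1.08e-08), and Vsir (-1.01) and Pdcd1, which encodes PD-1 (-0.54), also fell without overlap. Tigit rose by 0.92 without overlap. Of 20 costimulatory and coinhibitory receptors 7 rose and 7 fell (70.0% called, all genes 58.3%). Of 12 CD4 T cell markers 8 fell and 3 rose (91.7% called); Cd3d fell by 0.54, while Thy1 rose by 1.13 in exons and 1.76 in introns. Of 15 BCL2 family genes 4 rose and 3 fell (46.7% called, under the 58.3% of all genes), with Bcl2l1, which encodes the survival protein BCL-XL, at 115, 178 and 247 CPM in KO and 234, 326 and 384 CPM in TG libraries (log2 0.78, SE 0.07, adjusted p = 3.79e-08).

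TGF-beta signalling genes rose in 9 of 16 and fell in 3 (75.0% called, all genes 58.3%). The coreceptor Tgfbr3 (1.37; 25.3, 30.1 and 44.5 against 70.5, 79 and 103 CPM) and the signal transducer Smad3 (1.23; 13.5, 18.5 and 27.1 against 36.3, 43.7 and 49.4 CPM) rose, while Tgfbr2 and the corepressor Tgif1 fell by 0.85 and 0.72. Tgif1, with 1 miR-19a/b and 1 miR-92a match, did not change in introns beyond its error (0.03, SE 0.08), and its exonic minus intronic change was -0.76 (SE 0.09, adjusted p = 1.74e-07).

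**Figure D5:**
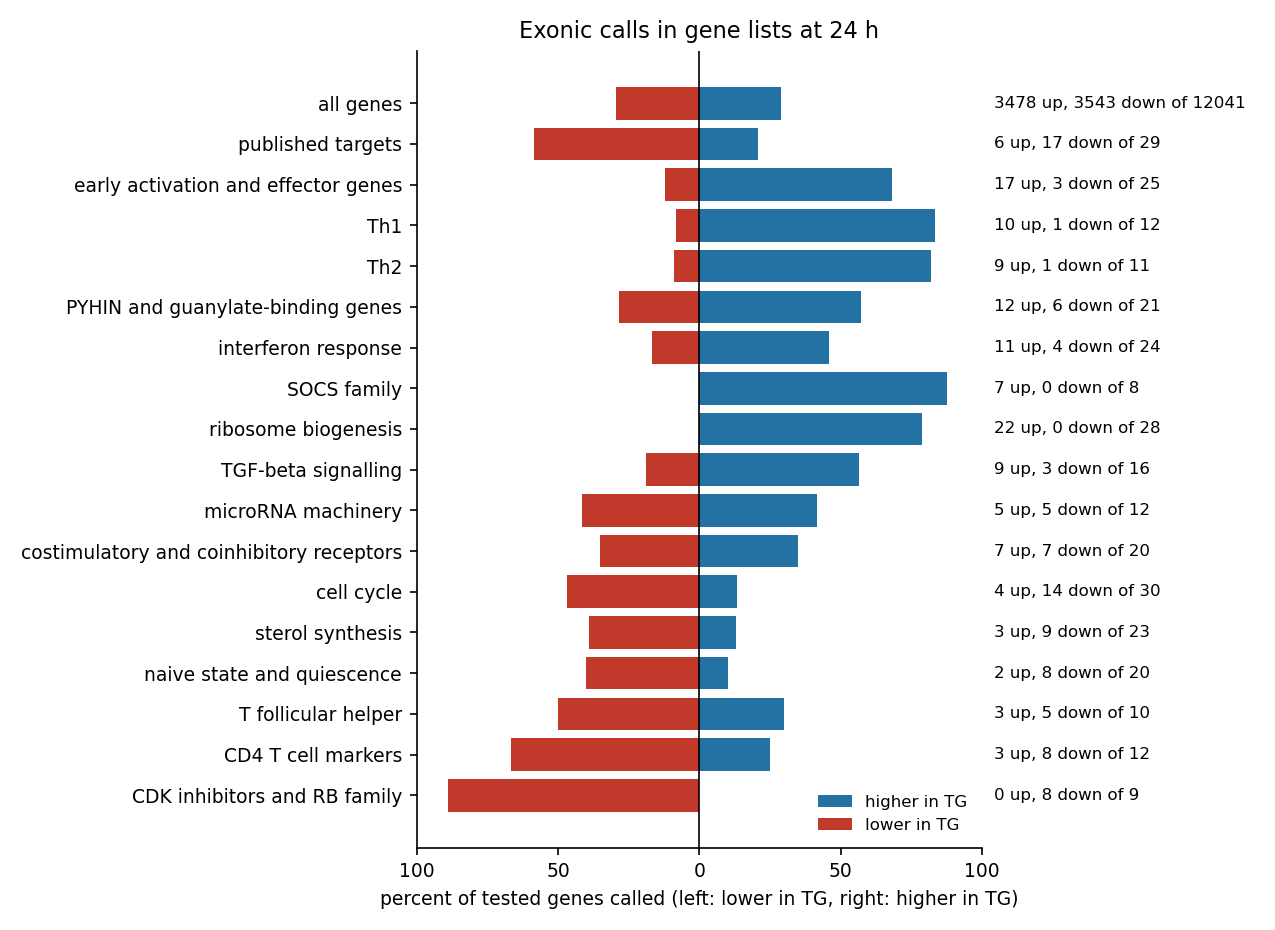
Percent of tested genes called higher (right, blue) or lower (left, red) in TG than in KO cells, in exonic counts, for all genes and for 17 gene lists. All genes are called in nearly equal parts (3478 up, 3543 down), CDK inhibitors and RB family genes only down (8 of 9) and ribosome biogenesis and SOCS genes only up (22 of 28 and 7 of 8).

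For the genotype by strength term between the doses of anti-CD3, edgeR called 0 of 12041 genes (0%; 674 at an unadjusted p under 0.05). The smallest p was that of Il12a, whose TG minus KO log2 difference was 2.08 higher under the weak stimulus (SE 0.46, unadjusted p = 3.38e-04, adjusted p = 0.807), at 0.28 CPM in KO and 1.77 CPM in TG libraries (medians). Snx11 (0.43), Pnpla6 (0.42), Lgals4 (1.09) and Cd53 (-0.37) followed, each at an adjusted p of 0.807. Taken separately, the very weak stimulus gave 4806 and the weak stimulus 4397 called genes. Both strengths of a genotype and number shared deviations (correlations across genes of 0.332 to 0.563), and the strength term did not pair them. Its error therefore includes spread between numbers within a genotype, which makes a difference between doses harder to call. The 0 calls do not show that the genotype difference was the same at both doses.

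WT cells, which lack Cre and were in none of the tests reported here but that with all 58 libraries in 1 fit (5514 genes called between TG and KO), stood between the genotypes for most genes that differed. The WT mean of 8 libraries lay between the KO and TG means in 92.3% of the 7021 called genes, 43.5% of the 5020 not called and 71.9% of all tested. Genes are called for a gap between the KO and TG means, and a wider gap takes in another mean more readily. The contrast of called with other genes therefore does not by itself place WT between the genotypes. On a scale from KO (0) to TG (1), the median position of WT was 0.45 in called genes. For Batf3 the WT median was 0.76 CPM, nearer to KO (0.28) than to TG (8.76); for Rcan3 it was 49.7 CPM, between 82.2 and 29.9.

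The genotype difference was not the same a day later. For the term that compares the TG minus KO difference at 48 h with that at 24 h, over 32 libraries, edgeR called 3354 of 12699 genes (26.4%), 1444 upward (11.4%) and 1910 downward (15%); the count was 1947 without the replicate block. At 48 h alone 59.9% of 12426 genes were called (29.1% higher, 30.7% lower). The kinase subunit gene Pik3cg was lower in TG cells at 24 h (log2 -0.71, SE 0.05) and higher at 48 h (0.92, SE 0.09). Tap2, a peptide transporter gene, went from 0.58 (SE 0.06) to -0.83 (SE 0.10), and Max, the partner of MYC, from 0.17 (SE 0.04) to -0.74 (SE 0.06). The prostaglandin receptor gene Ptger4 went from 0.12 (SE 0.06) to -1.21 (SE 0.05) and Gosr2 from -0.03 (SE 0.04) to -0.72 (SE 0.05), from differences at 24 h that were not called. The rise of Max at 24 h was not called under the weak stimulus alone (adjusted p = 0.118).

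Genes near Rosa26, the miR-17~92 locus and Cd4, the gene whose sequences drive Cre, were counted separately. Within 10 Mb of Rosa26 62.4% of 85 tested genes were called, within 10 Mb of the miR-17~92 locus 66.7% of 27, and within 10 Mb of Cd4 60.0% of 130, beside 58.3% of all. Called changes of at least 2-fold were 6 of the 85, 0 of the 27 and 14 of the 130, beside 752 of 12041 tested genes. Those near Cd4 include Tspan9 and Usp18, both within 5 Mb, and Usp18 also lies within 10 Mb of Rosa26. What part position has in these changes was not tested.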

How the data were processed

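Poly(A) RNA was read by stranded single-end RNA-seq, per the labels' protocols. The authors deposited raw counts per gene for all libraries in a table of genes and a second table of introns; alignment tools and build are known from the submitters' processing notes, which list STAR 2.5.2a, FastQC 0.11.5, edgeR 3.24.3, R 3.5 and mm10. For the program that counted reads, its annotation and use of strand, nothing is given in the sources used here. Intronic counts exceeded those of the first table in 13.3% of values, so that table was taken as exonic. Of 24028 gene IDs, 23968 matched a RefSeq symbol.

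The deposited counts of the 16 libraries were fitted with edgeR 4.0.16 (R 4.3.3; filterByExpr, TMM, quasi-likelihood test) with replicate number, stimulus strength and genotype as terms, and p-values were adjusted by Benjamini-Hochberg over all genes tested; a gene was called at an adjusted p under 0.05. The same model was fitted to introns, and exonic minus intronic change was tested as an interaction of genotype with table over the genes kept in both. The fits were tested on simulated data, whose libraries shared deviations by number across genotypes but none particular to a genotype and number. How such sharing between both strengths affects the calls was therefore not tested. Same-numbered KO and TG libraries of a strength shared deviations in all 8 pairs (correlation 0.182 to 0.451, median 0.264). The number was therefore used as a pairing block, and the labels do not say what it stands for. Deviations from a group mean cancel within the group, so positive same-numbered pairs make the other pairs negative on average. The median of other pairs, -0.086, is therefore no separate comparison. Totals of 19.2 to 20.6 M counts limit the precision for low genes, and 6571 genes had no count in any of the 16 libraries. Two-sided tests were used throughout.

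Named genes were the cluster and allele marks; the 12 largest called rises and falls with at least 5 CPM in the higher genotype and no overlap; the 8 largest exonic minus intronic changes in each direction with at least 5 exonic CPM; the 6 largest intronic changes in each direction with at least 2 intronic CPM; 5 genes by p for the strength and time terms; up to 4 members of each list by adjusted p; and published targets; a few genes that the rule names are not reported here. The members and lists were chosen with earlier results of these data known. Alternatives were no block, summed strengths, single strengths, DESeq2 1.42.0 and its size factors, no filter, all 58 libraries, limma 3.58.1, and leaving out replicates and libraries.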

Additional observations from a re-analysis of the deposited data

Results flagged for a closer look

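Of 112 groups of 8 libraries tested for a sample far from the others (56 genes in KO and in TG cells), 2 held one; chance alone flags about 5 percent of groups. Both were the KO library numbered 4 under the very weak stimulus, which was the highest of its group for Tgfbr2 (162 CPM) and for Zbtb4 (31.0 CPM).

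The TG minus KO difference changed from 24 h to 48 h in 3354 genes by edgeR's test of that change. By smallest p these were led by Ptger4 (change of the log2 difference -1.34), Pik3cg (1.62), Gosr2 (-0.71), Max (-0.92) and Tap2 (-1.41).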

How the results depend on the processing

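Without the replicate block, edgeR called 5811 genes in exons, 1726 in introns, 793 for exonic minus intronic change and 1947 for the change from 24 h to 48 h. With both strengths summed, 4 against 4, the block gave 1786 in introns, and the fit without the block gave 3955 in exons and 615 in introns. Summed strengths were not run for exonic minus intronic change. The weak stimulus alone gave 4397 in exons and 1742 in introns, and the very weak stimulus alone 594 in introns. Leaving out each replicate number in turn gave 6003 to 6693 in exons, 1973 to 2576 in introns and 1134 to 1661 for exonic minus intronic change, the last with 1180 without number 3 and 1134 without number 4. Leaving out each single library gave 6664 to 7054 in exons. The difference between strengths was called in 0 genes by edgeR in each alternative run, none of which paired both strengths of a genotype and number. Fewer samples enter the fits on sums, single strengths and left-out numbers. The sums also no longer take both strengths of a genotype and number as separate samples. What makes the counts differ was not tested for any of these runs.

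Over 188 named genes and 1680 alternative values in exons, 1586 kept direction and call, 77 lost and 8 gained the call, 9 changed sign without being called, and 0 called values reversed. For exonic minus intronic change, 244 of 264 values over 44 genes kept both, 15 lost and 3 gained the call, and 2 changed sign without being called. Low hairpin counts limit the cluster's fold changes.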
